A study of Sus scrofa with 13 samples.

Results

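Expression in the longissimus dorsi, a back muscle, was compared between Piau and Yorkshire x Landrace crossbred pig fetuses at 70 days of gestation. The direct comparison comes from 3 arrays, of 13 in the series, that hybridised a Piau pool and a crossbred pool of that age together. They paired Piau pool 492 with crossbred pool 10, Piau pool 396 with crossbred pool 12, and Piau pool 308 with crossbred pool 11. Fitted values and tests come from a fit to all 13 arrays unless another setting is named. Piau is a local Brazilian breed, and the crossbreds came from the US. Each pool held RNA of 3 fetuses of 1 litter, and each litter came from another gilt, so the pools are separate biological samples. The series had 4 Piau and 3 crossbred pools at day 70 and the same numbers at day 40. The fourth Piau pool of day 70 was hybridised with a Piau pool of day 40 and with no crossbred pool. The other 12 arrays form 3 closed loops of 4 arrays, and pools 492 and 10 lie in loop 1, pools 396 and 12 in loop 2, and pools 308 and 11 in loop 3. Piau RNA was prepared from 30 mg of tissue on columns with DNase digestion, and crossbred RNA from 1 g of tissue with a phenol-based reagent. Every result below therefore carries both differences at once: breed and extraction method cannot be told apart.

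Skeletal muscle of the pig fetus forms in waves: a first set of primary fibres appears early, and secondary fibres then form along them during mid-gestation. MYOD1 and related transcription factors commit precursor cells to the muscle lineage, while integrins, hyaluronan and matrix proteases shape the space in which myoblasts move and fuse. Immediate early transcription factors such as JUN are switched on quickly by growth signals and by stress.

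Each deposited value is a log ratio of the 2 dyes at 1 probe, taken as log2 and turned to Piau minus crossbred by the dye labels. A gene-specific dye effect, the mean over the 12 arrays of the closed loops, was removed from each single-array value. Which dye was the numerator is unknown: with Cy5 on top a positive value means more RNA in Piau, and with Cy3 on top it means less. Sizes, tests and the question of which genes lie on the same side are not touched by this. Log ratios give no level of a gene, so the labelled tissue could not be checked against muscle markers, and fewer cells of a type cannot be told apart from less RNA per cell. Of 20736 probes, 178 (175 genes) carried a gene symbol.

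The 3 arrays placed the probes alike in part once the dye effect was removed. Probes are not independent replicates. Across all of them, the array of pool 492 had a Pearson correlation of 0.663 with that of pool 396 and 0.611 with that of pool 308. The arrays of pools 396 and 308 correlated at 0.657. By rank (Spearman) the values were lower, at 0.567, 0.436 and 0.482 in the same order of pairs. Before removal the Pearson correlations were 0.0626, 0.734 and 0.00449 in that order, so removal lowered the value of pools 492 and 308. Piau RNA carried Cy3 on the arrays of pools 492 and 308 and Cy5 on that of pool 396. The SD of the dye-corrected ratios was 0.320, 0.328 and 0.355 for pools 492, 396 and 308.

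Of the 178 named probes, 17 (9.55%) passed an adjusted p of 0.05 for Piau minus crossbred at day 70, 11 of them positive and 6 negative, in a limma fit to all 13 arrays with Benjamini-Hochberg adjustment over all probes. Over all probes 3462 passed, or 16.7%, with 8.56% positive and 8.13% negative. The median absolute difference was 0.075 for the named probes and 0.107 for all probes. All 3 arrays lay on 1 side of 0 for 69 of the 178 named probes, where 46.6% of all probes did so. Among the 17 that passed, JUN, PGK2, PPP2R1A, KLF4 and FGF9 had the largest positive values, and RPN2, MYOD1 and CYBA the largest negative ones.

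**Figure D1:**
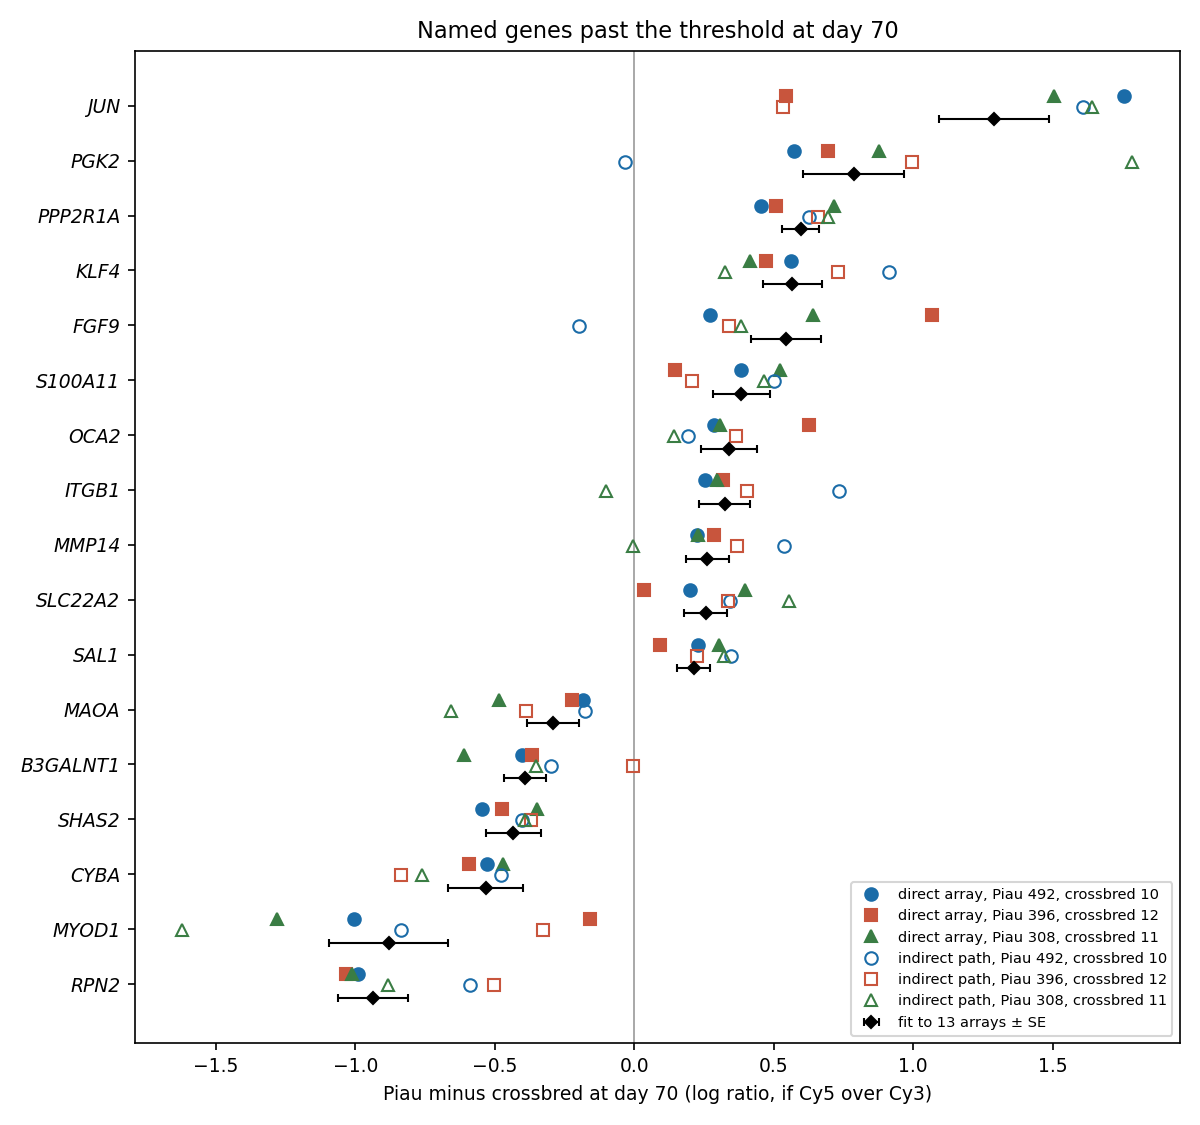
The 17 named genes past the threshold, with the Piau minus crossbred log ratio on the horizontal axis: filled symbols are the 3 direct arrays, open symbols the paths through the other 3 arrays of the same loop, and black diamonds the fit to 13 arrays with its SE. The filled symbols of each gene lie on 1 side of 0, JUN and MYOD1 are widely spread, and RPN2 has its 3 direct arrays between -1.03 and -0.99.

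Members of the gene lists were chosen with earlier results of these data known, so counts per list, here and below, test no gene class. Of the 37 list probes 12 passed, where 16.7% of all probes did. Both immediate early and stress transcription factors with a named probe, JUN and KLF4, passed on the positive side (2 of 2). Their median was 0.93, against a median of -0.01 over all probes. JUN (probe 15941), a subunit of the AP-1 transcription factor, was at 1.76 on the array of pool 492, 0.55 on that of pool 396 and 1.51 on that of pool 308. The array of pool 396 thus stood well below the others, although all lay above 0. The fitted difference was 1.29 ± 0.20 (SE, adjusted p = 0.000889). This is 2.44-fold if the logarithm is to base 2 and 3.63-fold if it is natural. The fit took 1 ratio of pool to array variance for all probes. For a gene that varies between pools as JUN does, the fitted SE and p can be too small. A limma fit to the 3 dye-corrected direct arrays gave 1.27 (adjusted p = 0.0297). KLF4 (probe 4707), a zinc finger factor of the immediate response to serum and stress, was at 0.56, 0.47 and 0.42 for pools 492, 396 and 308. Its arrays lay close together, and the fit gave 0.57 ± 0.11 (adjusted p = 0.00324). Without the arrays of loop 1 or loop 2, the adjusted p of KLF4 was 0.0619 and 0.0526.

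Each pair of pools was also linked by a path that avoids its direct array: the Piau age array, the day 40 breed array and the crossbred age array of the same loop. The path shares the pools with the direct array, and it sums the errors of 3 arrays. The direct array enters it only through the dye effect, a mean over 12 arrays that includes the direct ones. Path and direct values are therefore not fully separate. Removing that mean also ties the loops together: any single path value of a gene follows from its other path and direct values. For JUN the paths gave 1.61, 0.53 and 1.64 for pools 492, 396 and 308. The pair 396 and 12 was lowest there too, which is not a separate check. For KLF4 they gave 0.91, 0.73 and 0.32. From these paths alone, the fit without the 3 direct arrays put JUN at 1.25 (adjusted p = 0.103) and KLF4 at 0.81 (adjusted p = 0.101), and neither passed.

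Of the 3 named myogenic regulators 1 passed, on the side opposite to JUN (median -0.25). MYOD1 (probe 9028), the transcription factor that commits cells to the muscle lineage, was at -1.01, -0.16 and -1.28 on the arrays of pools 492, 396 and 308. The pair 396 and 12, which had the smallest JUN difference, also had the smallest MYOD1 difference. The fit gave -0.88 ± 0.21 (adjusted p = 0.0135), and the indirect paths were -0.84, -0.33 and -1.62. Without the array of pools 308 and 11, the fitted value was -0.77 and the adjusted p was 0.073. For MYOD1 too, the fitted SE and p can be too small. The limma fit to the 3 dye-corrected direct arrays gave -0.82 (adjusted p = 0.0732).

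ITM2A, a membrane protein known from differentiating muscle and cartilage cells, was at -0.64, -0.29 and 0.04 on the arrays of pools 492, 396 and 308, and did not pass (fit -0.25 ± 0.11, adjusted p = 0.165). Its indirect paths kept that order, at -0.62, -0.12 and 0.19. LMCD1, a LIM domain cofactor found in muscle, was at 0.05 ± 0.11. The single contractile gene with a named probe, MYH7, encodes the slow myosin heavy chain. It had the widest spread of all named probes, at -0.72, 1.20 and 0.26 on the arrays of pools 492, 396 and 308, with paths of 0.18, 1.33 and -0.51. The arrays therefore fell on both sides of 0, and the fit of 0.19 ± 0.32 did not pass (adjusted p = 0.777).

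Among the extracellular matrix genes, 3 of 4 passed, 2 positive and 1 negative (median -0.06). SHAS2 (probe 16373), a hyaluronan synthase, was at -0.55, -0.47 and -0.35 for pools 492, 396 and 308 and at -0.40, -0.37 and -0.39 on the indirect paths. The 6 values lay within a narrow band, and the fit was -0.43 ± 0.10 (adjusted p = 0.00944). Without loop 1 or loop 2, the adjusted p was 0.088 and 0.103. ITGB1 (probe 10758), the beta subunit shared by receptors for laminin, collagen and fibronectin, lay on the other side at 0.25, 0.32 and 0.30 on the same 3 arrays. Its paths were more scattered, at 0.74, 0.40 and -0.10, and the fit was 0.32 ± 0.09 (adjusted p = 0.0286). Leaving out the array of pools 396 and 12 or that of pools 308 and 11 gave 0.32 and 0.33, with adjusted p of 0.0947 and 0.0722.

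MMP14 (probe 8165), a protease anchored in the cell membrane that cleaves collagen, was at 0.22, 0.29 and 0.23 for pools 492, 396 and 308. The fit was 0.26 ± 0.08 (adjusted p = 0.0353), but 7 of the 13 refits with a single array dropped did not call it (values 0.22 to 0.30, highest adjusted p 0.11). A fit to pool levels that blocks on the loop gave an adjusted p of 0.0829. HAPLN1, which links hyaluronan to cartilage proteoglycans, was at -0.29, -0.44 and -0.22 and did not pass (fit -0.38 ± 0.43, adjusted p = 0.649). Its error in the fit was large, and its direct arrays of day 40 ran from -0.97 to 2.07. A fit to the dye-corrected direct arrays of day 70 gave -0.32 (adjusted p = 0.0576).

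Of the glycosylation genes, 2 of 3 passed, both negative (median -0.39). RPN2 (probe 15942), a subunit of the oligosaccharyltransferase that adds N-linked sugars in the endoplasmic reticulum, was at -0.99, -1.03 and -1.01 on the arrays of pools 492, 396 and 308. The 3 pairs of pools thus differed by almost the same amount. The fit was -0.94 ± 0.13 (adjusted p = 0.00041), while the indirect paths were smaller, at -0.59, -0.50 and -0.88. B3GALNT1 (probe 10325), which makes the globoside core of glycolipids, was at -0.40, -0.36 and -0.61, with a fit of -0.39 ± 0.07 (adjusted p = 0.00364). Its path through loop 2 was -0.01, against -0.30 and -0.35 in loops 1 and 3, and without loop 1 the adjusted p was 0.0724. The lysosomal membrane protein LAMP1 was at 0.07 ± 0.09.

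Of 4 genes of oxidation and reduction, 2 passed, both negative (median -0.23). CYBA (probe 15078), the membrane subunit p22phox of the NADPH oxidase, was at -0.53, -0.59 and -0.47 on the arrays of pools 492, 396 and 308 and at -0.48, -0.84 and -0.76 on the paths. The fit was -0.53 ± 0.13 (adjusted p = 0.0168). Without the array of pools 492 and 10 the value was -0.51 (adjusted p = 0.0613), and without that of pools 396 and 12 it was -0.53 (adjusted p = 0.0604). MAOA (probe 387), which degrades monoamines at the mitochondrial outer membrane, was at -0.18, -0.22 and -0.48, and the fit was -0.29 ± 0.09 (adjusted p = 0.048). Dropping a single array ended the call in 11 of 13 refits (values -0.33 to -0.22, highest adjusted p 0.2). QDPR, which regenerates tetrahydrobiopterin, was at 0.11, 0.02 and -0.62 and fell on both sides of 0. TSPO, a mitochondrial outer membrane protein, was at 0.18, 0.18 and 0.50, and the fit of 0.26 ± 0.09 did not pass (adjusted p = 0.0795).

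Of the growth factors and receptors, 1 of 3 passed. FGF9 (probe 5139), a secreted fibroblast growth factor, was at 0.27, 1.07 and 0.64 on the arrays of pools 492, 396 and 308. The fit was 0.54 ± 0.13 (adjusted p = 0.0113), and its paths were -0.20, 0.34 and 0.38. The direct value of the pair 396 and 12 was thus the highest but was not matched by its path. Without the array of pools 308 and 11, the value was 0.51 and the adjusted p was 0.0511. Without the array of pools 396 and 12 the value was 0.34, the lowest of the 13 such refits. LEPR, the leptin receptor, was at -0.14 ± 0.07 (adjusted p = 0.225), and BMP15, a growth factor of the egg cell, at -0.07 ± 0.05.

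Outside the gene lists, 5 of 141 named probes passed, all positive. PPP2R1A (probe 2118), the scaffold subunit of protein phosphatase 2A, was at 0.45, 0.51 and 0.71 for pools 492, 396 and 308, and its paths were 0.63, 0.66 and 0.70. It had the smallest p of the named genes (0.60 ± 0.07, adjusted p = 0.000129) and was the only named gene to pass in all 26 alternative settings tried, including the fit without the 3 direct arrays. PGK2 (probe 15507) is the testis form of a glycolytic enzyme whose widely expressed relative PGK1 is very similar, so which transcript the probe read is uncertain. It was at 0.57, 0.70 and 0.88 on the direct arrays, but at -0.03, 1.00 and 1.78 on the paths, with a fit of 0.79 ± 0.18 (adjusted p = 0.0104).

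S100A11 (probe 11187), a calcium-binding protein, was at 0.38, 0.15 and 0.52 on the arrays of pools 492, 396 and 308, with a fit of 0.38 ± 0.10 (adjusted p = 0.0217). Its paths of 0.50, 0.21 and 0.47 were again lowest for the pair 396 and 12. Dropping the array of pools 308 and 11 gave an adjusted p of 0.101, and blocking on the loop it was 0.0712. SAL1 (probe 1683), a lipocalin of boar saliva, was at 0.23, 0.09 and 0.30 (fit 0.21 ± 0.06, adjusted p = 0.0258). Without the array of pools 492 and 10 its adjusted p was 0.0821, and without that of pools 308 and 11 it was 0.114. SLC22A2 (probe 7301), an organic cation transporter best known from the kidney, was at 0.20, 0.04 and 0.40 (fit 0.26 ± 0.08, adjusted p = 0.0406). Dropping a single array ended the call in 10 of 13 refits (highest adjusted p 0.168), and so did blocking on the loop (0.0977).

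Coat colour differs between these breeds, and 4 coat colour genes had 7 named probes, of which 1 passed (median -0.07). OCA2 (probe 11189), a melanosome membrane protein, was at 0.28, 0.62 and 0.31 on the arrays of pools 492, 396 and 308, and its paths were 0.19, 0.37 and 0.14. The fit was 0.34 ± 0.10 (adjusted p = 0.0369). Dropping a single array ended the call in 6 of 13 refits, and without the array of pools 396 and 12 the value was 0.25 (adjusted p = 0.199). Blocking on the loop, the adjusted p was 0.0582. The agouti signalling protein ASIP had 4 probes between -0.10 and 0.04, the melanocortin receptor MC1R was at -0.09 and the melanin enzyme DCT at 0.02, and none of them passed.

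Markers of other cells were few and none passed. The 4 myeloid genes ran from -0.07 for the signalling adaptor TYROBP to 0.61 for the cathelicidin PR39. PR39, an antimicrobial peptide of myeloid cells, was at 0.68, 0.89 and 0.63 on the arrays of pools 492, 396 and 308, all above 0, and its fit of 0.61 ± 0.21 missed the threshold (adjusted p = 0.069). It passed in the fit to the dye-corrected direct arrays (0.73, adjusted p = 0.01). It also passed without the array of crossbred pools 11 and 3 (0.69, adjusted p = 0.0284). Without the Piau age array outside the loops it passed too (0.68, adjusted p = 0.0177). The call changed in 2 of 13 refits with a single array dropped (highest adjusted p 0.223) and in 3 of 13 other settings. The fit without the 3 direct arrays gave 0.25 ± 0.42 (adjusted p = 0.861). The lymphocyte gene CD4 was at 0.00. MADCAM1, an addressin and not a lymphocyte gene although listed with them, was at 0.23. The embryonic globin HBE1 was at 0.10 and the caveolar coat protein CAV1 at -0.16. The skin cadherin DSG1 was at -0.20 and the lipid droplet protein PLIN1 at 0.01. No nerve or Schwann cell marker of the list had a named probe. The part of cell composition in the differences above was not tested.

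Some genes that did not pass differed between the pairs of pools in a way that direct arrays and paths shared. CAV1 was at 0.44, -0.37 and -0.54 on the arrays of pools 492, 396 and 308, and at 0.40, -0.53 and -0.66 on the paths. FOLR1, a folate receptor, was at 0.24, 0.35 and -0.88, with paths of 0.48, 0.47 and -1.002. In both genes 1 pair of pools lay on the opposite side of the other two, on its direct array and on its path alike. MYH7, FOLR1, JUN, MYOD1 and CAV1 had the 5 widest ranges over the direct arrays among the named probes, from 1.91 for MYH7 to 0.98 for CAV1, where the median range was 0.212 for named and 0.255 for all probes. Paths and direct arrays share both pools and the dye effect, so these values describe the pools and not the breeds. Which pool of a pair stood apart was not tested.

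**Figure D2:**
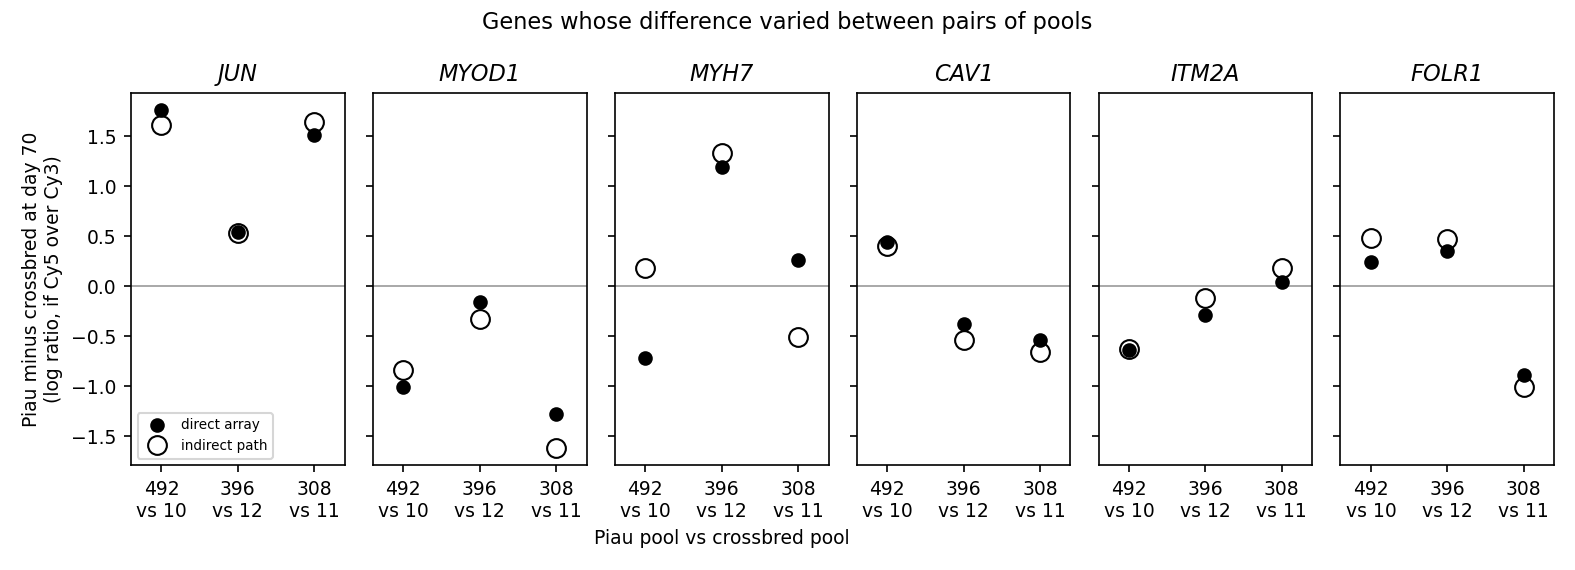
The Piau minus crossbred log ratio at day 70 for 6 genes, by pair of pools, with filled points for the direct array and open circles for the path through the other 3 arrays of the loop. JUN and MYOD1 are nearest to 0 in the pair 396 and 12, at 0.55 and -0.16 on the direct arrays, and CAV1 is positive in the pair 492 and 10 alone.

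The breed difference at day 70 was set beside that at day 40. Other pools were used at day 40, but the fitted values of both ages came from the same fit. In each loop the path to the day 70 difference runs through the day 40 breed array. A shared side at both ages is therefore not independent agreement. Of the 178 named probes 15 passed at day 40, where 19.8% of all probes did. At both ages 8 named genes passed, all on the same side: JUN, KLF4, PPP2R1A and MMP14 positive, and RPN2, MYOD1, SHAS2 and B3GALNT1 negative. Each of these 8 had the smaller fitted size at day 70. Over all probes, fewer passed at day 70 (16.7%) than at day 40. How many of all probes passed at both ages, kept their side or were smaller at day 70 was not counted. The counts of named genes by age, here and below, are therefore not read as a trait of these genes. JUN was at 1.29 at day 70 and 2.26 at day 40, and SHAS2 at -0.43 at day 70 and -0.90 at day 40. These differences between the ages did not pass over all probes, where 0.265% of probes did: the interaction was -0.97 ± 0.23 for JUN (adjusted p = 0.106), 0.47 ± 0.12 for SHAS2 (0.122) and -0.37 ± 0.13 for KLF4 (0.254). No named probe passed for the interaction (limma), and 16 had an unadjusted p under 0.05, where 11.4% of all probes had one.

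Of the 17 genes of day 70, 9 did not pass at day 40. OCA2 was positive on all 3 arrays at day 70 and ran from -0.42 to -0.13 on the 3 direct arrays of day 40, with an interaction of 0.57 ± 0.12 (adjusted p = 0.0665). SAL1 ran from 0.09 to 0.30 at day 70 and lay close to -0.05 on all 3 direct arrays of day 40 (interaction 0.27 ± 0.07, adjusted p = 0.133). CYBA was at -0.53 at day 70 and -0.07 at day 40 (interaction -0.46 ± 0.16, adjusted p = 0.273). PGK2 (0.79 and 0.45), FGF9 (0.54 and 0.26), ITGB1 (0.32 and 0.13), S100A11 (0.38 and 0.28), SLC22A2 (0.26 and 0.19) and MAOA (-0.29 and -0.19) kept the same side at day 70 and at day 40, with interactions that did not pass.

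Conversely, 7 genes passed at day 40 and not at day 70. TSPO was at 0.26 ± 0.09 at day 70 and 0.83 ± 0.09 at day 40, and its interaction of -0.57 ± 0.11 came nearest to the threshold among the named genes (adjusted p = 0.0548). That interaction crossed it when the day 40 array of pools 241 and 3 (-0.62, adjusted p = 0.0264) or the day 70 array of pools 308 and 11 (-0.63, adjusted p = 0.0373) was dropped. The addressin MADCAM1 was at 0.23 at day 70 and 0.70 at day 40, the progestin receptor PAQR8 at 0.19 and 0.53, and CRSP3 at 0.01 and 0.28. QDPR was at -0.16 at day 70 and -0.64 at day 40, LAMP1 at 0.07 and 0.29, and NTAN1, an amidase that acts on N-terminal asparagine, at -0.26 and -0.34.

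**Figure D3:**
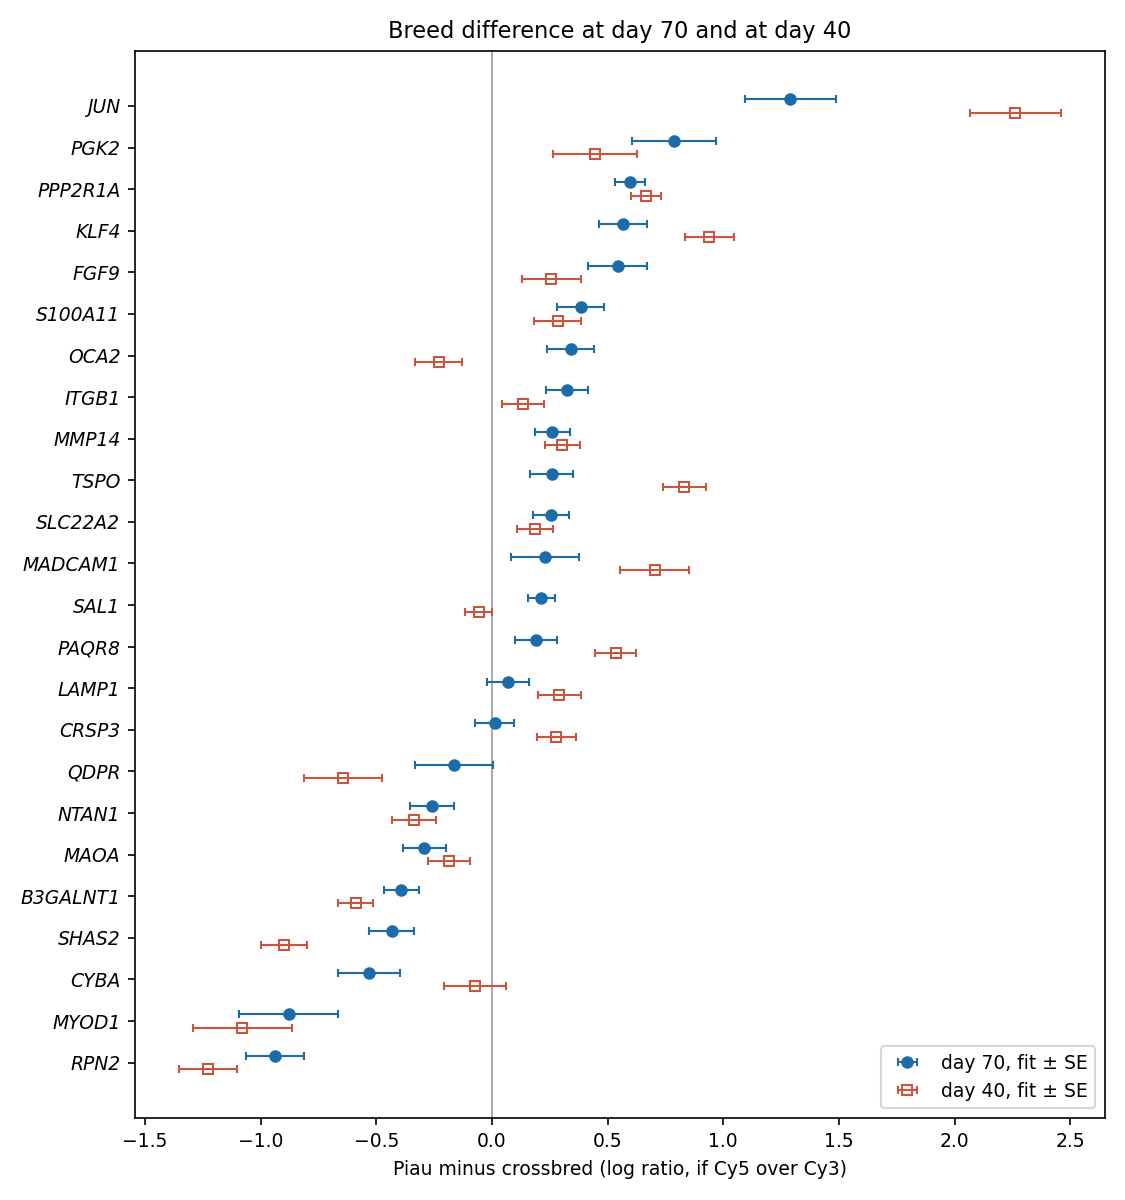
Fitted Piau minus crossbred log ratio ± SE at day 70 (circles) and day 40 (squares) for the 24 named probes past the threshold at either age. The 8 genes past it at both ages lie nearer to 0 at day 70, and OCA2 and SAL1 lie on opposite sides of 0 at the ages.

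Of the 3462 probes past the threshold at day 70, 1870 had a size under 0.5, 1353 a size from 0.5 to 1, and 239 a size of at least 1, and the median size was 0.473. Probe 12066 had the largest positive value, 2.94 ± 0.19 (adjusted p = 5.74e-06), with 2.95, 3.32 and 3.05 on the arrays of pools 492, 396 and 308, and probe 1868 followed at 2.89 ± 0.28. Probe 20724 had the largest negative one, -2.31 ± 0.25 (adjusted p = 0.000122), with -1.96, -2.22 and -2.92 on the same arrays, and probe 13573 was at -2.30 ± 0.25. All 4 were of similar size at day 40, at 2.50, 2.98, -2.87 and -3.00.

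For 30 of the probes past the threshold at day 70, all of them unnamed, the breed difference also differed from that at day 40 (interaction, adjusted p under 0.05). Probe 12430 led them, at 1.78 ± 0.10 at day 70 and 0.37 ± 0.10 at day 40 (interaction 1.40 ± 0.12, adjusted p = 0.00102). Probe 7270 changed side, at 0.96 ± 0.17 at day 70 and -0.52 ± 0.17 at day 40.

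Calls were not spread evenly over the probe numbers. Named probes recurred at a spacing of 432, and 171 of the 178 had another named probe exactly that far away, so the 20736 numbers form 48 runs of 432 places. Places 391 to 414 of the runs, a stretch of neighbouring places with medians above 0 that was found in the data, held 1152 probes. Their median was 0.13, and 31.1% of them passed, 311 positive and 47 negative. Places 1 to 390 had a median of -0.02, with 16% past the threshold, 1413 positive and 1588 negative. Named probes lay in places 386 to 391 alone. In places 387 to 390, which held most of them, 12.5%, 2.083%, 12.5% and 10.42% of probes passed. The share of 9.55% for named probes, against 16.7% for all, cannot be told apart from their place. The raised median was seen on every direct array, at 0.12, 0.15 and 0.15 for pools 492, 396 and 308, and at day 40 too (0.16).

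The series text gives 20400 oligonucleotides, 336 fewer than the rows of the table, which is 7 places in each of the 48 runs. In the last 7 places, 426 to 432, 0 of 336 probes passed at day 70, and 9 had an unadjusted p under 0.05 (limma). Place 425 before them also had 0% past the threshold, with 10.42% in place 424 and 2.083% in place 423. In the last 7 places the SD of the fitted values was 0.121, against 0.274 in places 1 to 390. Their median was 0.084 at day 70 and 0.004 at day 40. What these rows hold is unknown here. Which oligonucleotides fill places 391 to 414 was not tested.

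**Figure D4:**
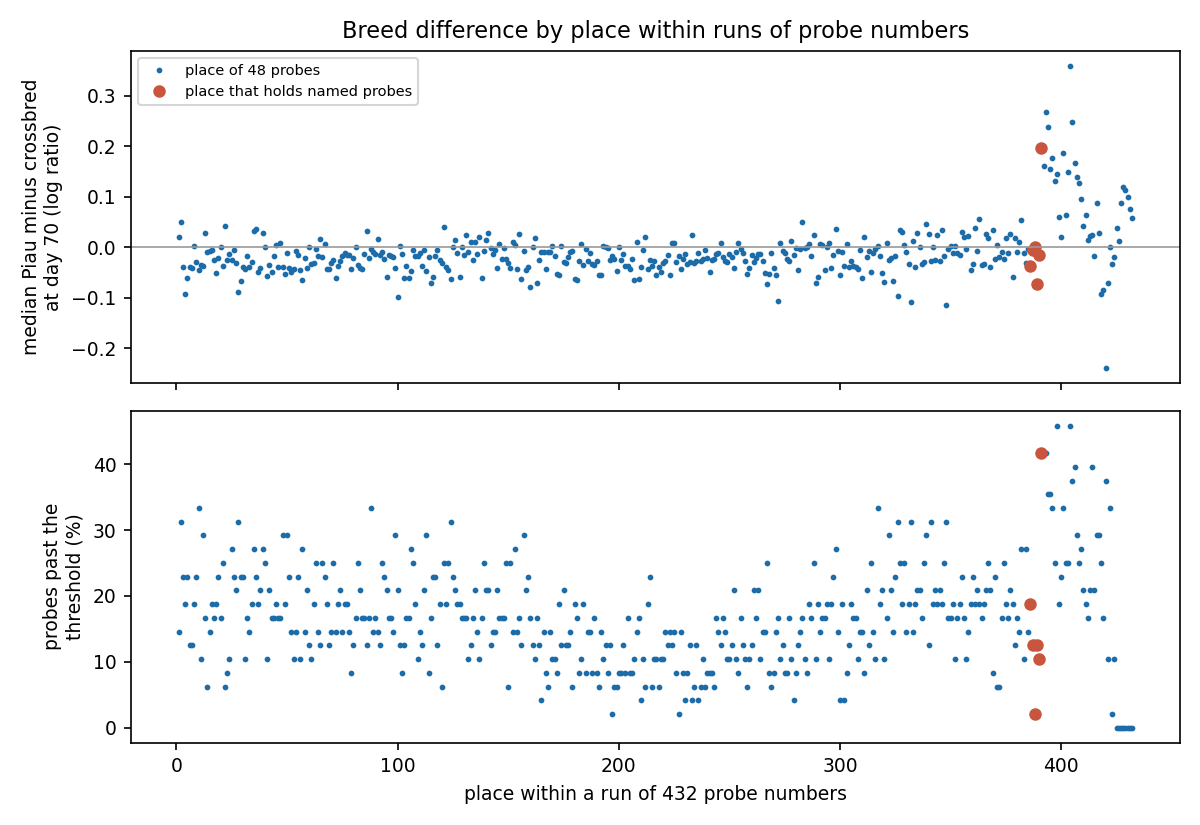
Median Piau minus crossbred log ratio at day 70 (top) and percentage of probes past the threshold (bottom) for each of the 432 places in the runs of probe numbers, 48 probes a place, with places that hold named probes in orange. Places 391 to 414 lie above 0 in the top panel, because the stretch was picked that way. Place 425 and the last 7 places have no probe past the threshold.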

How the data were processed

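Per the series' design text, the authors LOESS-normalised the fluorescence intensities. They deposited 1 log ratio of the dyes per probe and array, taken as log2 ratios; the base and the numerator are unknown. No source used here describes scanning, background correction or spot filters, signal over background is unknown, and precision is limited by the number of arrays. The table has 20736 probes, 13 arrays and no missing value. Symbols came from the platform annotation, and all 178 matched RefSeq (Sscrofa11.1) by Entrez identifier.

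Piau minus crossbred at day 70, the same at day 40 and their difference were contrasts of 1 generalised least squares fit (4 groups, a dye intercept per probe, litter pool random at 0.119 times the array variance). Tests were two-sided, with limma 3.58.1 in R 4.3.3 (moderated, 9 residual and 3.08 prior df), Benjamini-Hochberg over all probes and a threshold of 0.05. Errors are SEs of that fit. The pool ratio was 1 value for all probes, so SEs and p can be too small for genes that vary more between pools. The procedure was tested on simulated data.

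Named were probes with 1 symbol past the threshold at day 70 or only at day 40, members of 15 gene lists (34 genes, 37 probes), and the 2 largest and 2 smallest probes. FOLR1, probes 12430 and 7270 and the genes plotted by pool pair were chosen after their values were seen. Members and lists were chosen with earlier results of these data known. Alternatives changed the dye term, arrays, pool effect, moderation, scale and loop block; 3 on probe runs and places were added after seeing the data.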

Additional observations from a re-analysis of the deposited data

Results flagged for a closer look

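The breed difference differed between the ages, by the interaction test, for 55 probes in all and for 30 of those past the threshold at day 70, none of them named.

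OCA2 and SAL1 were singled out because their direct arrays lay on opposite sides of 0 at the ages. OCA2 was at 0.34 at day 70 and -0.23 at day 40, and SAL1 at 0.21 at day 70 and -0.06 at day 40. The tests of these differences gave adjusted p of 0.0665 for OCA2 and 0.133 for SAL1 (limma).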

How the results depend on the processing

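The 17 named genes past the threshold kept their side of 0 in 442 of 442 combinations of gene and alternative setting. They stayed past the threshold in 320, and only PPP2R1A did so in every setting. The settings reuse all or part of the arrays that picked these genes, so a kept side is no independent support. The 3462 probes became 1944 without the dye intercept, 207 from the indirect paths, 1519 without loop 1, 1752 without loop 2 and 2214 without loop 3; dropping single arrays gave 2385 to 3663. The 17 named genes became 10 without the dye intercept, 9 from the direct arrays, 1 from the indirect paths, 5 without loop 1, 6 without loop 2 and 9 without loop 3, and dropping single arrays gave 10 to 18 (11 without pools 492 and 10, and 10 without pools 308 and 11). The loop as a replicate block gave 2700 probes and 14 named genes. The count of 0 named genes for the interaction became 2 with arrays treated as independent and 3 without loop 3, and 0 to 2 with single arrays dropped. Genes that had not passed changed side: QDPR (0.038), LAMP1 (-0.026), CRSP3 (-0.033) and HBE1 (-0.046) without loop 3, NTAN1 (0.029), LAMP1 (-0.032) and CRSP3 (-0.072) from the indirect paths, and CRSP3 (-0.0043) under the replicate block. With single arrays dropped, QDPR ran from -0.26 to 0.0020, CRSP3 from -0.028 to 0.044 and HBE1 from -0.018 to 0.19. Settings without a loop, or with direct or indirect arrays only, use fewer arrays, and the cause of the other changes was not tested. The direct setting takes its dye effect from all 12 arrays of the loops, as if known without error.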
